A study of Mus musculus with 20 samples.

Results

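The contractile genes of vascular smooth muscle were examined in whole mouse brain as 8 genes, Acta2, Tagln, Myl9, Myh11, Cnn1, Des, Tpm2 and Mylk, which were taken by gene symbol from a table of 45700 genes. SMA mice were of the “Taiwanese” model of spinal muscular atrophy (SMA), with the genotype Smn-/-; SMN2tg/0, so that mouse Smn was lost in every cell and a human SMN2 transgene was present. Controls were heterozygous littermates, Smn-/+; SMN2tg/0, which carried the same transgene and had lost 1 allele of Smn, and all mice were congenic on FVB. Brains were taken at postnatal day 5 (P5, early-symptomatic, 2 control and 2 SMA replicate numbers) and at day 7 (P7, late-symptomatic, 3 control and 3 SMA replicate numbers). Under each replicate number there are 2 libraries, which gives 20 libraries. One is of total cytoplasmic RNA, pooled from the fractions of a whole sucrose gradient, and one of polysomal RNA, pooled from polysomal fractions alone. The labels do not say whether both libraries of a number come from the same mouse. A numbered mouse below stands for a replicate number, and leaving it out drops both of its libraries. Levels are FPKM, fragment counts scaled to the exon length of the gene and to the mapped fragments of its library, a unit per length that allows genes to be compared with each other. The sum of FPKM over all genes lay between 571462 and 997685 per library, and between 23630 and 28070 genes were above 0. The table holds no read counts, so it is unknown how many reads stand behind any value.

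Vascular smooth muscle cells surround the arteries and arterioles of the brain and set their diameter, while the related pericytes sit on the capillaries. When calcium enters such a cell, myosin light chain kinase, the product of Mylk, becomes active and phosphorylates the regulatory light chain of myosin, for which Myl9 codes. Myosin with the smooth muscle heavy chain (Myh11) then pulls on filaments of smooth muscle α-actin (Acta2) that carry tropomyosin β (Tpm2), calponin (Cnn1) and transgelin (Tagln). Desmin (Des) forms the intermediate filaments that tie the contractile units together. Many of these genes are switched on by serum response factor (SRF) and its partner myocardin, which act through a short promoter motif, the CArG box.

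Of the 8 members, Myl9 alone was separate between genotypes in all 4 comparisons of SMA with control, and its sequence features are therefore shown first. Myl9 (ENSMUSG00000067818.6) lies on the plus strand of chromosome 2, from 156775420 to 156781658 in GRCm38 by the Gencode M21 annotation. The study's own primer list holds a qPCR pair for this gene. These oligos are printed in lower case, and each was found in transcripts of Myl9 and of no other gene in Gencode M21. They belong to qPCR and do not define what the FPKM values cover.
Myl9 forward primer: cactcgcatcctcaaacacg
Myl9 reverse primer: tgactgggatggggtctagg
They bind at bases 590 to 609 and 655 to 674 of the transcript ENSMUST00000088552.6, which is 1128 bases long, and bound a product of 85 bases.

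Promoters of the members were read from RefSeq (GRCm38.p6), as the 250 bases before the start of transcription given there. They are shown for Myl9 and Acta2 since both hold a CArG-like motif. These starts differ from the ends of the Gencode gene spans. The windows of Myl9, Acta2, Cnn1 and Tpm2 reach in part into the Gencode span. The Mylk window, chr16:34784700-34784949, lies wholly inside it. An entry was found for 6 of the 8 members, Tagln and Myh11 being the other two. The motif searched was the CArG box, which reads CC, then 6 bases that are each A or T, then GG, and reads the same way on both strands. No other motif was searched. Capitals mark an exact box or a box with a single C or G among its 6 central bases. The Myl9 promoter is chr2:156775214-156775463 on the plus strand, and the Acta2 promoter is chr19:34255374-34255623 on the minus strand.
Myl9 promoter: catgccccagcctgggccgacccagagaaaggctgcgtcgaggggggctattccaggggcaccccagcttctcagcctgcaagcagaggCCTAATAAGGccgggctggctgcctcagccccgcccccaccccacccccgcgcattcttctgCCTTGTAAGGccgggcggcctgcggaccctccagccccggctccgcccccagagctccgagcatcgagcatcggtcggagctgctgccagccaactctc
Acta2 promoter: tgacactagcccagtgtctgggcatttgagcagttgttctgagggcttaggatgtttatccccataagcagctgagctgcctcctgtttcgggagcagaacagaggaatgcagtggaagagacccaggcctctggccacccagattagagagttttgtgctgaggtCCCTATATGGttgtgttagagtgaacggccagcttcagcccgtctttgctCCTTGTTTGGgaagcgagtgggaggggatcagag
The Myl9 promoter held 1 exact box, CCTAATAAGG, that begins 161 bases before the start, and a box with a mismatch, CCTTGTAAGG, that begins 99 bases before it. In the Acta2 promoter there was no exact box, but a pair with a mismatch each began 84 and 34 bases before the start. An exact box was found in 1.47% of the 32851 promoters of the same length, and a box with at most 1 mismatch in 8.59%. The promoters of Cnn1, Des, Tpm2 and Mylk held neither in this window, which for Mylk is internal to the gene.

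The members differed widely in level, and the genes most restricted to smooth muscle were the weakest. Over the 20 libraries, Myl9 had the highest mean (10.97 FPKM, range 4.91 to 18.88) and held a median of 56.8% of the summed level of the 8 genes. Tpm2 followed at 3.02 FPKM, Acta2 at 1.89 FPKM, Tagln at 1.82 FPKM and Mylk at 1.01 FPKM. Desmin (Des) came next at 0.37 FPKM (0.13 to 0.69), and Myh11 (0.11 to 0.42) and Cnn1 (0.02 to 0.2) were lowest, at 0.19 and 0.11 FPKM, although both were above 0 in all 20 libraries. The label of smooth muscle thus rests on genes of very different strength here, since Myh11 and Cnn1, the members most specific to this cell type, were present at trace level, whereas Myl9, Tpm2 and Mylk are also made by other cells of the brain.

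This order held in most libraries for distant neighbours and was loose in the middle. Myl9 exceeded Tpm2 in 19 of 20 libraries, and Tagln exceeded Mylk, as Mylk exceeded Des, in all 20. Acta2 was above Tagln in only 13 libraries and Tpm2 above Acta2 in 15, so these neighbours were not separated beyond their spread between libraries. Des was above Myh11 in 17 and Myh11 above Cnn1 in 18. Tpm2 was also the most uneven of the members in the test, with a coefficient of variation of 50.3% over the libraries against 13.8% for Mylk. As background for these levels, the non-muscle paralogs were far stronger, with β-actin (Actb) at 2924 FPKM, γ-actin (Actg1) at 888.1 FPKM and the light chain gene Myl12b at 191.4 FPKM.

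**Figure D1:**
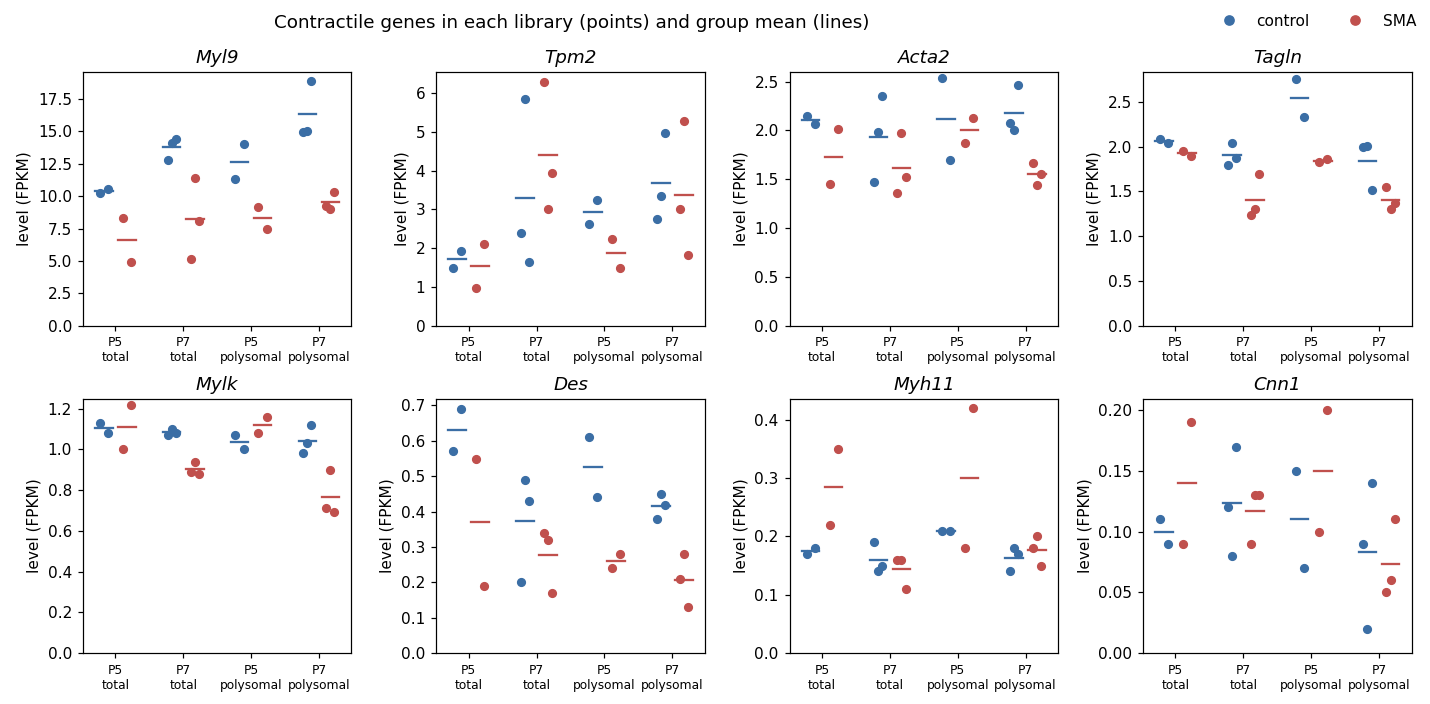
Level in FPKM (vertical axes, linear, each from 0) of the 8 contractile genes, ordered by mean level, with 1 point per library and a line at the mean of each genotype, stage and RNA fraction. Every SMA point of Myl9 lies below all control points of the same group, while Tpm2 scatters from 0.97 to 6.28 FPKM with no separation of the genotypes at P7.

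The effect of SMA was estimated with limma on log2(FPKM + 0.1) within each stage and RNA fraction, over the 15247 genes that averaged 1 FPKM or more. Myl9, Tpm2, Acta2, Tagln and Mylk entered that test, and Des, Myh11 and Cnn1 did not. Mylk met the level only through its higher libraries, with a mean of 1.07 FPKM in controls and 0.947 FPKM in SMA (10 libraries each). The main counts of called members between genotypes are therefore also given without it. Counts under the alternatives, and those for efficiency, fractions and stages, include Mylk. A gene was taken as changed at an unadjusted p under 0.05, the threshold of the study, and the p printed for a gene is the limma value after Benjamini-Hochberg adjustment over all tested genes. Rose and fell refer to that call, and a printed value above 0.05 means that the call did not hold after adjustment. Members and gene lists were chosen with earlier results of these data known. The shares of all genes printed beside their counts are therefore background and no test. In late-symptomatic polysomal RNA, 4 of the 5 tested members fell in SMA and none rose, where 5.38% of all tested genes were called lower and 5.35% higher. Without Mylk this was 3 of 4. In late-symptomatic total RNA 3 of 5 fell, or 2 of 4 without Mylk, against 4.70% of all genes called lower and 4.84% higher. In early-symptomatic polysomal RNA 2 of 5 fell, neither of them Mylk, against 6.82% lower and 5.65% higher, and in early-symptomatic total RNA none was called, against 3.89% lower and 4.36% higher. No member passed an adjusted p of 0.05 in any of these comparisons, the smallest being 0.179 in late polysomal, 0.299 in late total, 0.393 in early polysomal and 0.551 in early total RNA. The median log2 change of the tested members was -0.41, -0.24, -0.44 and -0.23 in the same order, and -0.41, -0.33, -0.52 and -0.26 without Mylk, while that of all tested genes was 0 in both late comparisons, -0.01 in early polysomal and 0.01 in early total RNA. The early total median of the 5 members was unsteady, at -0.07 without SMA mouse 1 and -0.32 without SMA mouse 2. With a pseudocount of 1 FPKM it was -0.13. The early polysomal count went to 0 with the replicate number as a block, with a correction for transcript length, and without control mouse 1 or SMA mouse 2. Without SMA mouse 1 both of its calls were also lost and Tpm2 was called lower instead. In late total RNA only Mylk was still called without control mouse 3, and without control mouse 2 the calls were Mylk, lower, and Tpm2, higher. In bulk RNA of a whole brain, fewer smooth muscle cells and less RNA per cell cannot be told apart.

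The regulatory light chain gene Myl9 had a lower level in SMA in all 4 comparisons and was called in 3 of them. The late polysomal call held under all 16 alternatives, the late total call under 11 of 16 and the early polysomal call under 6 of 14. In late polysomal RNA it measured 14.97, 15.05 and 18.88 FPKM in the controls and 9.23, 8.97 and 10.32 FPKM in the SMA mice. The highest SMA library thus lay well below the lowest control library, and the SMA mean was 58.3% of the control mean. On the log2 scale the difference was -0.77 (SE 0.12, limma adjusted p = 0.179). In late total RNA the controls had 12.81, 14.12 and 14.4 FPKM and the SMA mice 5.13, 11.41 and 8.08 FPKM. Again the genotypes did not overlap, but the SMA mice differed among themselves by more than the controls did, and the log2 difference of -0.81 had an SE of 0.30 (adjusted p = 0.492).

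At P5 the same gene showed a difference of similar size with fewer mice. Early polysomal Myl9 was 11.34 and 13.99 FPKM in controls and 9.17 and 7.45 FPKM in SMA. The groups did not overlap, with a log2 difference of -0.60 (SE 0.19, adjusted p = 0.393). In early total RNA the controls gave 10.25 and 10.55 FPKM and the SMA mice 8.32 and 4.91 FPKM, which did not pass the test (log2 difference -0.69, SE 0.31, adjusted p = 0.551). That difference was -0.32 without SMA mouse 2 and -1.07 without SMA mouse 1. It was called with genes above 0 in every library and with 1 model over 20 libraries. An exact permutation test on a single gene cannot go below p = 0.333 with 2 mice against 2, nor below 0.1 with 3 against 3, and Myl9 stood at that limit in each of the 4 comparisons.

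Mylk codes for the kinase that acts on this light chain and was called lower in SMA in both P7 fractions. All its P7 SMA values lay under the 1 FPKM set for testing, which the gene met only as a mean over 20 libraries. Its entry into the test thus depends on that level, although the polysomal call also held with no filter. The total RNA call held under 11 of 16 alternatives, being lost with no filter, with genes above 0 in every library, with quantile normalization, with 1 model over 20 libraries and with the length correction, and the polysomal call under 15 of 16, being lost with genes above 0 in every library. In late total RNA its level was 1.07, 1.1 and 1.08 FPKM in the controls and 0.89, 0.94 and 0.88 FPKM in the SMA mice. The mice of a genotype lay close together and the genotypes apart, so that a small log2 difference of -0.24 (SE 0.05) gave adjusted p = 0.299. In late polysomal RNA the controls measured 0.98, 1.03 and 1.12 FPKM and the SMA mice 0.71, 0.9 and 0.69 FPKM. The genotypes were again separate, by -0.41 on the log2 scale (SE 0.11, adjusted p = 0.337).

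In early-symptomatic mice Mylk was not called in either fraction. Total RNA gave 1.13 and 1.08 FPKM in controls and 1 and 1.22 FPKM in SMA, which overlap. Polysomal RNA gave 1.07 and 1 FPKM in controls and 1.08 and 1.16 FPKM in SMA, a log2 difference of 0.10 (95% interval -0.16 to 0.37) with adjusted p = 0.574. The change of Mylk in polysomal RNA therefore differed between the stages by -0.51 (SE 0.16, limma interaction of stage and genotype, adjusted p = 0.314), and it was the only tested member for which this interaction was called, in a comparison that called 13.7% of all genes. The call was lost without early control mouse 2, with genes above 0 in every library, with quantile normalization and with the length correction. In total RNA no member was called for the interaction, which called 10.1% of all genes. Mylk lies on the plus strand of chromosome 16 (ENSMUSG00000022836.10, 34745210 to 35002420), and 2.34% of the 100-base windows of its longest transcript are shared with antisense genes.

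Among the thin filament members, smooth muscle α-actin was called lower in SMA in 1 comparison, transgelin in 3 and tropomyosin β in none. Acta2 (ENSMUSG00000035783.8, chromosome 19, minus strand, 34241090 to 34255590) measured 2.08, 2 and 2.46 FPKM in late polysomal RNA of controls and 1.67, 1.44 and 1.55 FPKM in that of SMA mice. All SMA libraries were below all controls, at 71.3% of the control mean, with a log2 difference of -0.46 (SE 0.11, adjusted p = 0.284). In late total RNA Acta2 measured 1.47, 1.98 and 2.35 FPKM in controls and 1.36, 1.97 and 1.52 FPKM in SMA. These ranges overlapped and the difference of -0.24 had an interval from -0.79 to 0.32 (adjusted p = 0.749). Early values were 2.15 and 2.07 against 1.45 and 2.01 FPKM in total RNA, and 2.54 and 1.7 against 1.87 and 2.13 FPKM in polysomal RNA, and neither passed the test (adjusted p = 0.590 and adjusted p = 0.935).

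Transgelin, an actin-binding protein used as an early marker of the smooth muscle lineage, was called in 3 of the 4 comparisons, though not firmly. The late total call held under 11 of 16 alternatives, the late polysomal call under 7 of 16 and the early polysomal call under 7 of 14. In late total RNA Tagln was 1.8, 2.04 and 1.87 FPKM in controls and 1.24, 1.3 and 1.69 FPKM in SMA, with no overlap and a log2 difference of -0.42 (SE 0.13, adjusted p = 0.450). Late polysomal RNA gave 2, 2.01 and 1.52 FPKM in controls and 1.55, 1.31 and 1.37 FPKM in SMA. Here the lowest control lay just under the highest SMA library, and the difference of -0.36 (SE 0.13) passed the unadjusted threshold narrowly, with adjusted p = 0.454. Early polysomal Tagln was 2.76 and 2.33 FPKM in controls and 1.83 and 1.86 FPKM in SMA, a difference of -0.44 (SE 0.14, adjusted p = 0.394). Early total RNA gave 2.09 and 2.04 against 1.95 and 1.9 FPKM, which are apart but by little (adjusted p = 0.672).

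The position of Tagln may bear on its values, which was not tested. Its gene (ENSMUSG00000032085.4, minus strand of chromosome 9, 45929619 to 45936058) overlaps the end of Pcsk7 and the antisense gene Gm48529, and 33.2% of the 100-base windows of its longest transcript occur in genes on the opposite strand. The libraries came from a stranded kit, but the study ran its programs at their defaults, which treat reads as unstranded, so reads of Tagln and of its antisense partners may not be separable. In the deposited table the locus given for Tagln is longer, from 45838579 to 45936058, and also spans Rnf214, Gm16536, Gm49338 and Gm24646 on the same strand and Bace1 on the opposite one, so what its value covers is uncertain. For Acta2, Myl9, Myh11, Cnn1 and Tpm2 no window was shared with another gene.

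Tropomyosin β, which lies along the actin filament and is also made by skeletal muscle and other cells, varied between mice of a group by more than between genotypes at P7. Tpm2 in late total RNA was 2.4, 5.84 and 1.65 FPKM in controls and 6.28, 3.02 and 3.93 FPKM in SMA. In late polysomal RNA it was 2.74, 3.35 and 4.98 FPKM in controls and 3.02, 5.28 and 1.82 FPKM in SMA. The ranges overlapped in both, with log2 differences of 0.54 (interval -0.82 to 1.90) and -0.21 (-1.32 to 0.90). At P5 polysomal Tpm2 was 2.63 and 3.23 FPKM in controls and 2.25 and 1.5 FPKM in SMA, which did not overlap but did not pass the test (-0.64, SE 0.27, adjusted p = 0.424). Tpm2 (ENSMUSG00000028464.14) lies on the minus strand of chromosome 4, from 43514711 to 43523765.

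**Figure D2:**
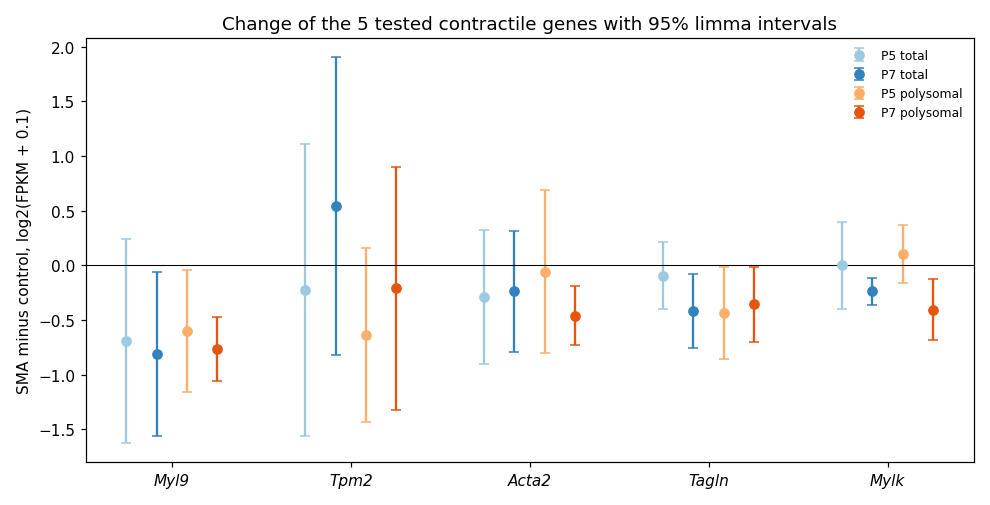
Difference of SMA minus control in log2(FPKM + 0.1) (vertical axis) for the 5 tested members in each stage and RNA fraction, with points at the limma estimate and bars for its 95% interval. The intervals of Myl9, Acta2, Tagln and Mylk in P7 polysomal RNA lie below 0, and those of Tpm2 all include 0.

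The 3 members under the level for testing were read from their values. Desmin (ENSMUSG00000026208.9, chromosome 1, plus strand, 75360329 to 75368579) in late polysomal RNA was 0.38, 0.45 and 0.42 FPKM in controls and 0.21, 0.28 and 0.13 FPKM in SMA, so that SMA stood at 49.6% of control with no overlap. Des was also separate in early polysomal RNA, at 0.61 and 0.44 FPKM against 0.24 and 0.28 FPKM, and in early total RNA, at 0.57 and 0.69 against 0.55 and 0.19 FPKM. Late total RNA overlapped, with 0.2, 0.49 and 0.43 FPKM in controls and 0.34, 0.32 and 0.17 FPKM in SMA. When every gene above 0 in at least 1 library was fitted, Des gave -0.78 in late polysomal RNA (SE 0.22, adjusted p = 0.537). In that fit Des was called lower there at the unadjusted threshold, and was not called in the other comparisons of SMA with control. The deposited locus of Des runs on to 75375012, past the end of the annotated gene. The end of Des is shared with the antisense gene Gm15179 over 4.20% of its windows.

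The genes of smooth muscle myosin heavy chain and calponin lay too low for a difference to be read. Myh11 (ENSMUSG00000018830.8, chromosome 16, minus strand, 14194535 to 14291372) in late polysomal RNA was 0.14, 0.18 and 0.17 FPKM in controls and 0.18, 0.2 and 0.15 FPKM in SMA. In early total RNA it was 0.17 and 0.18 FPKM in controls and 0.22 and 0.35 FPKM in SMA, where both SMA mice were above both controls. In the fit without a level filter these differences were 0.07 (adjusted p = 0.976) and 0.46 (adjusted p = 0.638). Cnn1 (ENSMUSG00000001349.4, chromosome 9, plus strand, 22099216 to 22109630) overlapped between genotypes in all 4 comparisons, with group means between 0.07 and 0.15 FPKM. Since 0.1 FPKM is added before the log, differences of genes this low are understated.

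Of the 5 tested members, every SMA library was below every control library for 3 in early total, 3 in early polysomal, 3 in late total and 3 in late polysomal RNA, and without Mylk for 3, 3, 2 and 2 of 4. Among all tested genes that pattern occurred in 22.5%, 26.6%, 7.37% and 8.24%. The opposite pattern, all SMA libraries above all controls, was seen for Mylk alone of the 5, in early polysomal RNA, and among all tested genes in 25.1%, 23.9%, 7.63% and 7.86%. Of the members under the level, Des was below in 3 groups and Myh11 above in early total RNA. The early counts are thus to be read against a high share of such genes, since few mice overlap seldom. The summed FPKM of the 8 genes was 66.4% of control in late polysomal, 75.4% in late total, 71.6% in early polysomal and 74.9% in early total RNA, a sum that mostly follows Myl9.

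Translation efficiency, the level in polysomal over that in total RNA, was not called changed in SMA for any member. The limma interaction of genotype and fraction called 0 of 5 members early, where 2.32% of all genes were called, and 0 of 5 late, where 2.07% were called. For Myl9 the change was 0.09 early (interval -0.87 to 1.05) and 0.05 late (-0.71 to 0.80), and for Acta2 late it was -0.22 (-0.79 to 0.34). These intervals come from fits that do not pair the libraries of a number, and they hold changes as large as those of the levels themselves. In these fits the size of any change in efficiency was thus not resolved. With the libraries of a number paired, the late count was still 0 of 5. Early Tagln came closest, with -0.34 (SE 0.17, adjusted p = 1).

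Few members were called between the fractions in control mice. Polysomal Tpm2 exceeded total Tpm2 early by 0.74 on the log2 scale (SE 0.20, adjusted p = 0.158), the only member called of 5, in a comparison that called 25.9% of all genes, and 3 were called with quantile normalization. In late controls no member was called, with 25.3% of all genes called. Compared by replicate number at P7 over both genotypes, Myl9 was higher in polysomal than in total RNA in 5 of 6 numbers, with a median log2 ratio of 0.29, and so were Acta2 and Myh11 in 5 of 6. Tagln and Tpm2 were higher in 3 of 6, Des in 1 with a median of -0.12, and Cnn1 in none with a median of -0.28. At P5 the numbers were not taken as pairs, but in the controls both polysomal values of Myl9 lay above both total values. The exception for Myl9 at P7 was SMA number 2, at 11.41 FPKM in total and 8.97 FPKM in polysomal RNA. Mylk was higher in polysomal RNA in 1 of 6, with a median of -0.10.

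**Figure D3:**
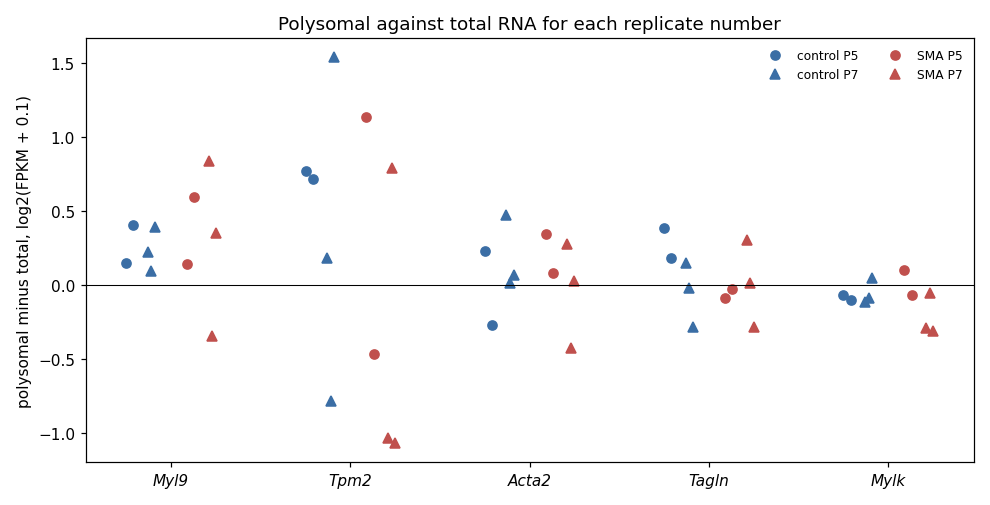
Polysomal minus total log2(FPKM + 0.1) (vertical axis) for each replicate number of the 5 tested members, by genotype (colour) and stage (circles P5, triangles P7), with a line at 0. The numbers were taken as pairs at P7 only, where Myl9 lies above 0 in 5 of 6, and Tpm2 spreads over the widest range in both genotypes.

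In control brain total Myl9 was higher at P7 than at P5. Stage cannot be told apart here from litter or library batch. Sex differed as well, since P5 controls 1 and 2 were male and P7 controls 1 and 2 female. Total Myl9 went from 10.25 and 10.55 FPKM to 12.81, 14.12 and 14.4 FPKM, with no overlap, which was 0.40 on the log2 scale (SE 0.07, adjusted p = 0.0332). It was the only member of 5 called in total RNA, in a comparison that called 40.3% of all genes. In polysomal RNA the controls went from 11.34 and 13.99 FPKM to 14.97, 15.05 and 18.88 FPKM, and the difference of 0.36 did not pass (SE 0.16, adjusted p = 0.166). No member was called there, against 42.0% of all genes. In SMA mice total Myl9 was 8.32 and 4.91 FPKM at P5 and 5.13, 11.41 and 8.08 FPKM at P7, values that overlap.

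Other genes of the same machinery were called in both directions. Of 12 tested genes of the thin filament and cytoskeleton, 2 rose and 2 fell in late polysomal RNA and 1 rose and 2 fell in late total RNA, and none was called early, with medians between -0.11 and 0.16. Smoothelin (Smtn), a marker of contractile smooth muscle, fell in late total RNA from 1.86 ± 0.47 to 0.963 ± 0.299 FPKM (SD, n = 3 each), by 0.89 on the log2 scale (limma adjusted p = 0.416). Caldesmon (Cald1), which restrains actin and myosin, fell there from 7.25 to 5.02 FPKM, by 0.52 (adjusted p = 0.299), whereas Csrp1, a LIM protein of smooth muscle and other cells, rose from 14.4 to 21.4 FPKM (0.56, adjusted p = 0.344) and in polysomal RNA from 15.9 to 24.5 FPKM (0.61, adjusted p = 0.260). Filamin A (Flna), which crosslinks actin, fell in late polysomal RNA from 13.45 to 9.54 FPKM (-0.50, adjusted p = 0.442) and Synpo2 rose from 2.22 to 3.34 FPKM (0.54, adjusted p = 0.446).

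Few of the enzymes that control light chain phosphorylation were called. Of 10 tested genes, the myosin phosphatase subunit Ppp1r12a fell in late total RNA from 16.6 to 13.8 FPKM (-0.27, adjusted p = 0.365) and in late polysomal RNA from 16.6 to 14.1 FPKM (-0.24, adjusted p = 0.374). It was the only gene of that list called late. Early, Ppp1r12b alone was called, higher in polysomal RNA (0.31, adjusted p = 0.393, called under 5 of 14 alternatives), and the list's medians lay between -0.07 and -0.01. Myl6, the light chain shared by muscle and non-muscle myosin, was abundant at 575.9 FPKM.

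Transcriptional control genes fell in 2 of 11 cases in both late fractions and in 1 of 11 in early polysomal RNA, with none higher. The receptor gene Tgfbr2 for TGF-β, which promotes the contractile state, went from 3.94 to 2.84 FPKM in late total RNA (-0.46, adjusted p = 0.412), from 4.18 to 2.91 FPKM in late polysomal (-0.51, adjusted p = 0.356) and from 4.35 to 3.13 FPKM in early polysomal RNA (-0.46, adjusted p = 0.392). Tbx18, a transcription factor of mural cells, fell from 1.40 to 1.14 FPKM in late total (-0.28, adjusted p = 0.471, called under 7 of 16 alternatives) and from 1.32 to 0.883 FPKM in late polysomal RNA (-0.53, adjusted p = 0.265). Srf was at 7.86 FPKM, and Myocd, the gene of myocardin, was at 0.13 FPKM on average and was not tested.

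Of 9 tested receptors and channels, the endothelin receptor Ednra, through which endothelin constricts vessels, was lower in 3 comparisons. It fell from 2.03 to 1.23 FPKM in late polysomal RNA (-0.69, SE 0.10, adjusted p = 0.168), from 1.82 to 1.32 FPKM in late total RNA (-0.42, adjusted p = 0.403) and from 1.505 to 1.02 FPKM in early total RNA (-0.52, adjusted p = 0.551). No other gene of that list fell. Higher in SMA were 2 in late polysomal, 1 in late total, 3 in early polysomal and 2 in early total RNA, among them the adrenergic receptors Adra1b in late polysomal RNA (4.70 to 6.17 FPKM, adjusted p = 0.240) and Adra1a in late total RNA (3.66 to 4.42 FPKM, adjusted p = 0.455), the calcium channels Ryr2 (5.84 to 9.17 FPKM, adjusted p = 0.364) and Cacna1c (8.27 to 12.2 FPKM, adjusted p = 0.381) in early polysomal RNA and Itpr1 in early total RNA (9.96 to 14.2 FPKM, adjusted p = 0.551, called under 7 of 14 alternatives), genes that neurons also express.

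The non-muscle paralogs serve as a contrast within the same gene families. Of 13 tested, 3 fell in late polysomal and 2 in late total RNA with none higher, and early 4 fell and 1 rose in polysomal and 2 fell and 1 rose in total RNA. Cnn2, the calponin of non-muscle cells, fell most in early polysomal RNA, from 6.61 to 3.09 FPKM (-1.08, adjusted p = 0.378), and also in late total RNA from 5.01 to 3.17 FPKM (-0.63, adjusted p = 0.329) and in late polysomal RNA from 5.53 to 3.99 FPKM (-0.46, adjusted p = 0.423). Tpm4 fell in early polysomal RNA from 47.8 to 25.7 FPKM (-0.90, adjusted p = 0.381) and in late polysomal RNA from 20.4 to 14.9 FPKM (-0.44, adjusted p = 0.374). Myl12a fell in early total RNA from 34.96 to 24.9 FPKM (-0.49, adjusted p = 0.551) and Tpm3 in late total RNA from 91.8 to 77.1 FPKM (-0.25, adjusted p = 0.326). Non-muscle myosin Myh10 rose early in total RNA, from 35.7 to 42.9 FPKM (0.27, adjusted p = 0.551).

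Among markers of the other cells of the vessel wall, more were called lower than higher in SMA in each comparison. Of 11 tested pericyte genes, 6 fell in each late fraction, 4 in early total and 3 in early polysomal RNA, and the only one higher was Cspg4 in early total RNA (2.19 to 3.13 FPKM, adjusted p = 0.551). Rgs5, the most abundant of them at 26.5 FPKM on average, went from 40.6 ± 3.17 to 15.5 ± 2.28 FPKM in late polysomal RNA (SD, n = 3 each, log2 difference -1.39, limma adjusted p = 0.0601) and from 32.8 to 13.96 FPKM in late total RNA (-1.23, adjusted p = 0.0258). Higd1b fell from 9.21 to 4.24 FPKM in late total RNA (-1.10, adjusted p = 0.0189). The summed level of the 12 pericyte genes separated the genotypes in each group, SMA being lower, at 60.9% of control in late polysomal and 62.5% in late total RNA, and 65.2% and 68.3% in the early fractions. No pericyte gene was at 0 in all libraries. What part these cells have in the result for the contractile genes was not tested.

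Endothelial genes, which mark the inner lining of the vessels, fell in 11 of 14 cases in late polysomal, 10 in late total, 9 in early polysomal and 11 in early total RNA. Their most abundant gene, claudin 5 (Cldn5, a tight junction protein), fell from 85.0 to 27.4 FPKM in early polysomal RNA (-1.62, adjusted p = 0.385) and from 48.3 to 18.7 FPKM in early total RNA (-1.36, adjusted p = 0.318). The angiopoietin receptor Tek fell from 3.28 to 0.967 FPKM in late total RNA (-1.65, adjusted p = 0.0404) and from 3.55 to 1.37 FPKM in late polysomal RNA (-1.31, adjusted p = 0.173), the related receptor gene Tie1 from 3.13 to 1.497 FPKM in late polysomal RNA (-1.02, adjusted p = 0.161), and the transcription factor Erg from 2.06 to 0.783 FPKM in late total RNA (-1.29, adjusted p = 0.0201). A single gene, Ly6c1, was higher, in late total RNA (11.8 to 14.3 FPKM, adjusted p = 0.299). The summed level of the list stood at 69.5% of control in late polysomal, 73.5% in late total, 48.8% in early polysomal and 54.8% in early total RNA, without overlap in any group. Its part in the result was likewise not tested.

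**Figure D4:**
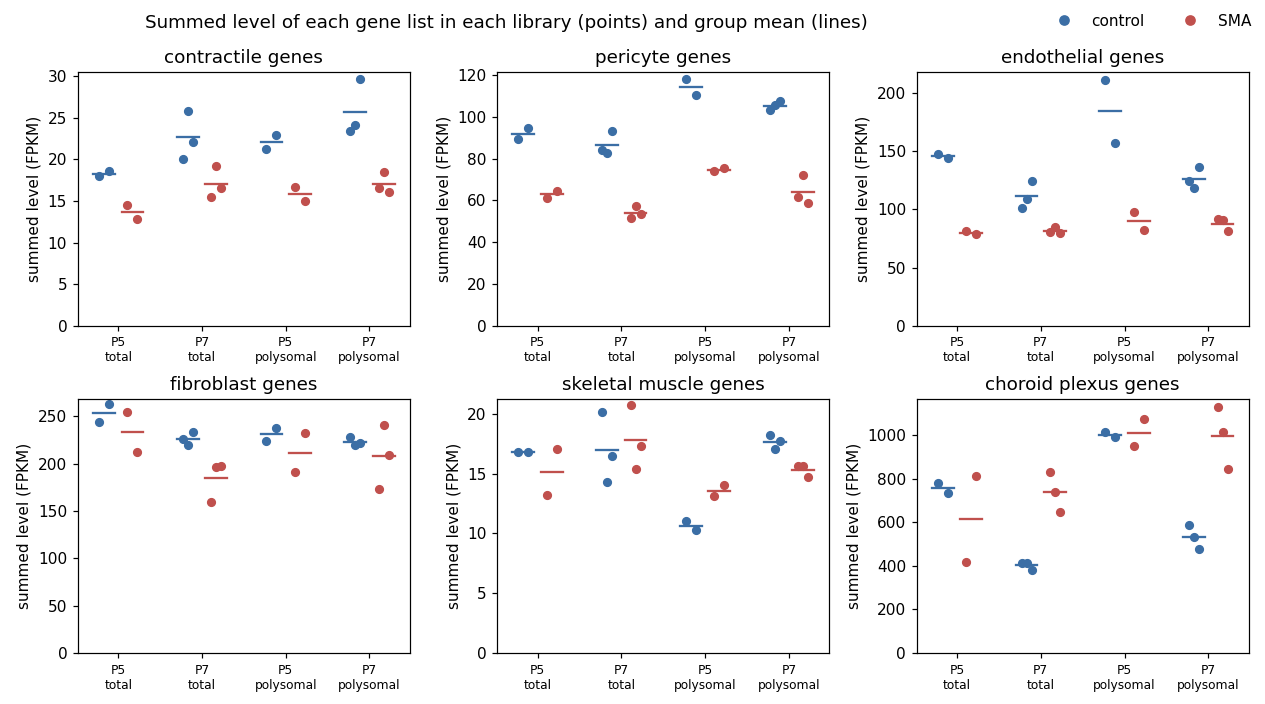
Summed level in FPKM (vertical axes, linear, each from 0) of 6 gene lists in each library, with lines at the means of genotype, stage and RNA fraction. The contractile, pericyte and endothelial sums of every SMA library lie below those of all controls of the same group, while skeletal muscle sums overlap in total RNA, lie higher in SMA in P5 polysomal RNA only through Acta1 at 0 in the controls, and choroid plexus sums are higher in SMA at P7.

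Fibroblast genes, which mark the outer vessel wall and the meninges, were called mostly lower. Of 12 tested, 5 fell and 1 rose in each late fraction, 3 fell in early polysomal, and 4 fell and 1 rose in early total RNA. Lumican (Lum), a matrix proteoglycan, fell from 3.00 to 1.52 FPKM in late total RNA (-0.94, adjusted p = 0.122), and collagen Col1a1 from 34.9 to 14.4 FPKM (-1.29, adjusted p = 0.128). Slc6a13, a transporter of leptomeningeal cells, rose there from 9.77 to 15.95 FPKM (0.69, adjusted p = 0.361). In the early groups decorin (Dcn) fell in polysomal RNA from 21.6 to 14.96 FPKM (-0.51, adjusted p = 0.392), and Pdgfra, which glial precursors also express, rose in total RNA from 24.1 to 29.7 FPKM (0.30, adjusted p = 0.551). Igf2 was the most abundant at 78.8 FPKM, and the list's sum overlapped between genotypes in all groups but late total RNA, where it was at 81.4% of control.

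Skeletal muscle, which could enter with tissue around the brain and which expresses Des and Tpm2, had a summed level that overlapped between genotypes in total RNA and was lower in SMA in late polysomal RNA. Of 16 genes of that list, 3 reached the level for testing, and the defining markers Ckm and Myog averaged 0.10 and 0.14 FPKM. Their sum was 105% of control in late total and 90.1% in early total RNA, with overlap in both. In late polysomal RNA it lay wholly below control, at 86.8% with all genes and at 77.8% without the skeletal α-actin gene, where Mylpf fell from 5.62 to 3.32 FPKM (-0.76, adjusted p = 0.322). Skeletal α-actin, Acta1, the most abundant at 4.35 FPKM, was listed at 0 in both early polysomal controls and at 3.72 ± 0.28 FPKM (SD, n = 2) in early polysomal SMA, so no fold is given. The other 18 libraries held 3.51 to 6.78 FPKM, and an exact 0 in such a table can be a failed estimate, so its call there, the only other one in the list, is not read as a rise. The early polysomal sum turned with this gene, at 127.6% of control with Acta1 and at 92.7% without it, where the SMA libraries (9.64 and 10.09 FPKM) lay below the controls (10.29 and 11 FPKM). The part of skeletal muscle in the results for Des and Tpm2 was not tested. Cardiac genes gave no call between genotypes among 2 tested, with Myl4 highest at 3.15 FPKM and Actc1 at 0.10 FPKM. The summed level of that list lay below control without overlap in early polysomal RNA, at 78.8%, and overlapped in the other groups.

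Erythroid genes, which mark blood, were seldom called but had medians below 0, and choroid plexus genes rose late. Of 6 tested erythroid genes, 1 fell in late polysomal (Hbb-bt, 174 to 114 FPKM, adjusted p = 0.356) and 1 in early total RNA (Hba-a2, 68.5 to 40.9 FPKM, adjusted p = 0.551), none in the other groups, and the most abundant, Hba-a1, averaged 1330 FPKM. The median log2 change of the 6 was -0.37 in late polysomal, -0.26 in late total, -0.57 in early polysomal and -0.20 in early total RNA, close to the medians of the contractile genes, while their summed level overlapped between genotypes in all groups. What part blood has in the result was not tested. Choroid plexus genes rose in 5 of 6 cases in both late fractions and in none early. Transthyretin (Ttr), its most abundant product, went from 509.3 to 962.3 FPKM in late polysomal RNA (0.91, adjusted p = 0.192) and from 383.6 to 708.5 FPKM in late total RNA (0.88, adjusted p = 0.119). The chloride channel gene Clic6 also rose, from 1.74 to 3.43 FPKM in late polysomal (0.93, adjusted p = 0.202) and from 1.44 to 2.76 FPKM in late total RNA (0.90, adjusted p = 0.132).

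**Figure D5:**
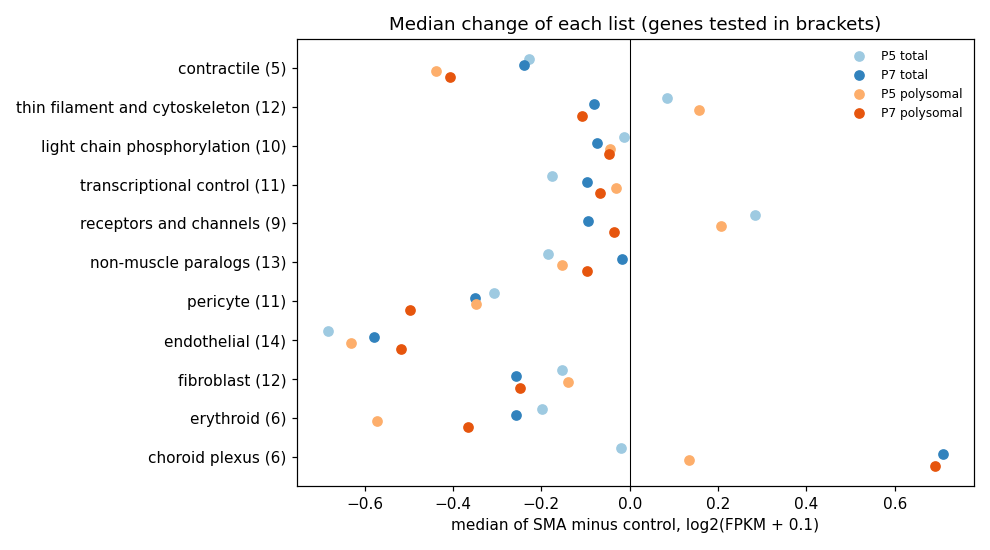
Median difference of SMA minus control in log2(FPKM + 0.1) (horizontal axis) for the tested genes of each list with at least 5 of them, in the 4 comparisons of stage and RNA fraction. Contractile, pericyte and endothelial medians lie between -0.68 and -0.23 and erythroid medians between -0.57 and -0.20, those of the fibroblast, non-muscle paralog, light chain and transcriptional control lists also lie left of 0 in all 4, and choroid plexus medians lie near 0.7 at P7.

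The members were also set beside all other genes by how they varied over the 20 libraries. After each gene was centred within its stage and fraction, the mean of the 5 tested members, each scaled to the same spread, was most alike to Kdr (Pearson r = 0.913), an endothelial receptor, and Rgs5 (0.906), followed by Abcc9 (0.894), a potassium channel subunit of pericytes, and Flt1 (0.891), another endothelial receptor. The next were Itga1, Clec14a, Slc39a8, Fam111a, Ets1 and Anxa5, down to r = 0.868. Not all genes of the vessel lists were alike to the members, since Cspg4 had r = -0.658 and ranked 14883 of 15242 genes, and the endothelial genes Emcn (-0.575), Ly6c1 (-0.503) and Slco1a4 (-0.457) were also negative. The centring did not remove the difference between genotypes, so r holds that difference together with variation between libraries of a genotype. The libraries may also share mice, so the values describe a likeness and no test was made of them. Among the members themselves the 10 pairs had r from -0.16 to 0.64, with a median of 0.42. Tagln with Myl9 (0.64) and Mylk with Acta2 (0.63) were closest, and Tpm2 was negative with Myl9 (-0.16), Tagln (-0.07) and Acta2 (-0.06).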

How the data were processed

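Total cytoplasmic and polysomal RNA of 20 libraries were compared. The authors mapped reads to GRCm38.p4, guided by Gencode M6, and deposited FPKM per gene, scaled to exon length and mapped fragments. The submitters' processing notes name TopHat2 2.0.14 and Cufflinks 2.2.1. All 20 value columns were matched to samples by the labels. Values were analysed in R 4.3.3 with limma 3.58.1 (lmFit and eBayes with a trend) as log2(FPKM + 0.1) in the 15247 genes averaging 1 FPKM or more, one fit for each comparison. CuffDiff and Xtail, which the study used, need alignments or counts and were not run. A call is an unadjusted p under 0.05, and adjustment was by Benjamini-Hochberg over all tested genes. Members and gene lists were chosen with earlier results of these data known.

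Named genes were all members and, of each list and direction in each comparison of SMA with control, up to 2 called genes with the largest change and no overlap between genotypes, with the most abundant gene of each cell type list. Each is given for at least 1 of its comparisons. Other genes named for their level were chosen after their values were seen. Replicate numbers shared by total and polysomal libraries correlated in their deviations from the group means at r = 0.162 to 0.449 late (6 numbers), and at 0.0952 to 0.215 early. They pair late libraries by the rule that every r exceeds 0.1. Sex, read from sex-linked genes, matched within all 10 numbers, but it was not balanced between genotypes. Early control mice 1 and 2 were male, while early SMA mouse 1 was female and mouse 2 male. Late control mice 1 and 2 were female and 3 male, and late SMA mice 1 and 2 were male and 3 female. Numbers shared by control and SMA gave r from -0.144 to 0.103 and do not pair mice. Alternatives were other pseudocounts, filters, scalings, variance models, a length correction, a replicate block, and leaving out each mouse. One gene of the light chain phosphorylation list is counted in that list but is not reported here by name.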

Additional observations from a re-analysis of the deposited data

Results flagged for a closer look

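The effect of SMA on Mylk differed between the stages in polysomal RNA, by -0.51 on the log2 scale (late minus early, SE 0.16, limma interaction adjusted p = 0.314). Control levels were 1.07 and 1 FPKM early and 0.98, 1.03 and 1.12 FPKM late, and SMA levels were 1.08 and 1.16 FPKM early and 0.71, 0.9 and 0.69 FPKM late, so that the early SMA values lay above the controls, by as little as 1.08 against 1.07 FPKM, and the late SMA values below. The interaction was no longer called without early control mouse 2, with genes above 0 in every library, with quantile normalization and with the length correction, and the early difference turned to -0.0779 with quantile normalization and -0.0727 with the length correction. Mylk reached the level for testing only through its higher libraries, all its late SMA values here lying under 1 FPKM, and no other member was called for this interaction. In total RNA the same difference was -0.24 (adjusted p = 0.541).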

How the results depend on the processing

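The values are FPKM, so depth per value is unknown, and most tested members lie at 1 to 3 FPKM, where a pseudocount and a level filter weigh most. In late polysomal RNA Myl9 and Acta2 were called under all 16 alternatives, Mylk under 15 and Tagln under 7. Of 135 calls of list genes in the comparisons of SMA with control, 69 held under all alternatives and 6 under at most 0.5 of them, all 135 keeping their direction. With 2 mice per genotype, leaving out 1 leaves a lone sample that is assumed to vary like the others.

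Counts of called members changed as follows, and the cause was not tested. At an adjusted p under 0.05, the 2 of early polysomal, 3 of late total, 4 of late polysomal, 1 of the polysomal stage difference and 1 of early control fractions all became 0. In early total RNA, 0 became 1 with genes above 0 in every library and with 1 model over 20 libraries. In early polysomal RNA, 2 became 1 with a pseudocount of 0.01, with no filter and with 1 model, and 0 with the length correction. In late total RNA, 3 became 1 with no filter and with quantile normalization, and 2 with genes above 0 in every library, with 1 model and with the length correction. In late polysomal RNA, 4 became 2 with genes above 0 in every library, and 3 with a pseudocount of 0.01, with no filter and with quantile normalization. The polysomal stage difference went from 1 to 0 with genes above 0 in every library and with quantile normalization. Between fractions of early controls, 1 became 3 with quantile normalization and 0 with 1 model. From P5 to P7, total RNA went from 1 to 0 with 1 model, and polysomal RNA from 0 to 1 with a pseudocount of 1, equal medians, 1 model or the length correction, and to 2 with genes above 0 in every library.

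Leaving out each mouse gave 0 to 1 called in early total, 0 to 1 in early polysomal, 1 to 2 in late total and 3 to 4 in late polysomal RNA, 0 to 1 for efficiency early and late, 0 to 1 for the stage difference in total and 0 to 2 in polysomal RNA. The efficiency calls appeared without early SMA mouse 1 and without late SMA mouse 2.

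Under the replicate block, the early polysomal count went from 2 to 0 and the late polysomal count from 4 to 3, and the counts of the other comparisons it could be fitted to stayed as they were. In the comparisons of SMA with control the block ties control and SMA numbers, which do not mark pairs. The lower counts there are thus no measure of a weaker effect. For efficiency and fractions the block ties the total and polysomal library of a number instead. Late efficiency then called 659 of all 15247 tested genes, against 315 without the block.

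Some members that were not called turned direction. Mylk in early total RNA (0.0003) became -0.00017 with a pseudocount of 0.01, -0.0385 with equal medians and -0.202 with the length correction, and Tagln there 0.0753 with that correction. Early polysomal Mylk became -0.0779 with quantile normalization and -0.0727 with the length correction, and Acta2 0.0604 with the latter. Without each mouse in turn, early total Mylk ranged from -0.131 to 0.132 and Tpm2 from -0.752 to 0.294, early polysomal Acta2 from -0.333 to 0.220, and late polysomal Tpm2 from -0.588 to 0.155.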

Other observations

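Between P5 and P7 in control brain, 42.0% of all tested genes were called in polysomal and 40.3% in total RNA. Stage cannot be told apart from litter or library batch in these comparisons. Of 9 tested receptors and channels, 5 rose and none fell in polysomal RNA, and 4 rose and none fell in total RNA, with median log2 changes of 0.57 and 0.29. Choroid plexus genes fell in 5 of 6 cases in both fractions, with medians of -0.80 and -0.54. Shares near or below those of all genes were called among endothelial genes, of which 2 of 14 rose and 3 fell in polysomal and 3 rose and 4 fell in total RNA, and among pericyte genes, of which 2 of 11 fell in polysomal and 1 rose and 2 fell in total RNA. Between the fractions of late controls, where 25.3% of all genes were called, erythroid genes were lower in polysomal RNA in 5 of 6 cases, by a median of -0.68, while 4 of 13 non-muscle paralogs were higher and 1 lower there and 4 of 11 pericyte genes were higher.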
